A study of Homo sapiens with 3 samples.

Results

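The genes of the NR2F family of orphan nuclear receptors and of retinoic acid handling were followed through the differentiation of human pluripotent stem cells into melanocytes. They are 10 of the 36601 genes in the count tables: NR2F1, NR2F2 and NR2F6, the binding proteins CRABP1 and CRABP2, the receptors RARA, RARB, RARG and RXRA, and the retinoic acid hydroxylase CYP26B1. They were picked from these data for the low level of NR2F1 in melanocyte-like cells of the later libraries and for the high level of CRABP1 in neural crest-like cells. Those values are therefore given as descriptions, with no test, and the tests below concern what the choice did not use.

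Each library held single cells from 1 day of induction, D23, D32 and D44, with 1 library per day. The protocol used a medium with Wnt3a-conditioned medium, dexamethasone, SCF, endothelin-3, cholera toxin, TPA and bFGF. It drives embryoid bodies, first in suspension and then plated on fibronectin, towards melanocytes. After passaging, TPA was taken out and serum added. Which libraries were taken before or after this change is not given in the sources used here. The listed additives name no retinoid. The cells that conditioned the Wnt3a medium were themselves cultured with fetal bovine serum, so that serum may also have been present before passaging. Its retinoid content is not given. The cells were frozen before capture, and the labels give both induced pluripotent stem cells and the human embryonic stem cell line H9 as the source, so that the libraries are identified by day alone. The D23 library had an induction and a sequencing run of its own, and D32 and D44 shared theirs. The day, the stage of culture with its medium, the induction and the run thus cannot be told apart between D23 and the later days. The labelled cell type is melanocytes, and the markers below show that it does not hold for every cell.

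Retinoic acid is made from retinol by dehydrogenases, carried in the cytoplasm by CRABP1 and CRABP2, and degraded by the CYP26 enzymes. In the nucleus it binds RAR receptors, which pair with RXR receptors on direct repeats of a hexamer and switch their target genes from repression to activation. The NR2F proteins, also called COUP transcription factors, bind similar repeats, pair with RXR and can repress retinoic acid targets. In the embryo, NR2F1 and NR2F2 mark neural crest and mesenchyme, and retinoic acid patterns the hindbrain and the crest that leaves it.

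After the study's limits on genes, UMIs and mitochondrial share, 3796, 6023 and 5811 cells were kept at D23, D32 and D44. Median depth was 12573.5, 36375 and 42940 UMIs per cell, so that sequencing was shallowest at D23. Kept libraries shared 2 to 15 barcodes in pairs. Cells were assigned by the markers of 3 classes. Melanocyte-like cells were 59.3%, 91.4% and 99.0% of kept cells at D23, D32 and D44 (2251, 5507 and 5752 cells). Neural crest-like cells were 24.6%, 1.88% and 0.0860% (932, 113 and 5 cells), and mesenchymal-like cells were 7.35%, 4.28% and 0.241% (279, 258 and 14 cells). The 5 neural crest-like cells of D44 were too few for a sum of at least 10 cells, and their values are given but enter no test. Each class is a range of a marker score and not a cell type fixed by other means. Melanocyte markers summed to 4028 to 11640 CPM in melanocyte-like cells, against 178 to 267 CPM in neural crest-like cells and 163 to 184 CPM in mesenchymal-like cells. CPM is the UMIs of a gene per 1000000 UMIs of all cells of the class in that library. Neural crest markers summed to 780 to 3645 CPM in neural crest-like cells, against 57.0 to 78.7 CPM in mesenchymal-like cells. The gate list for this class includes the neuronal genes NEFM and DCX. At D23 the 10 leading genes of the class included CRABP1, NEFM, POU3F2 and DCX. POU3F2 and DCX are also among the neural tube markers used below, so that the class name stands for the gate and not for crest alone. Mesenchymal markers reached 1496 to 2899.5 CPM in neural crest-like cells, against 2695 to 7747 CPM in mesenchymal-like cells, so that these classes overlap in collagen genes. Among cells thinned to 5000 UMIs, the median neural crest-like cell of D23 held 14 UMIs of neural crest markers and 11 of mesenchymal markers. No gate marker was among the 10 leading genes of mesenchymal-like cells at D23, where ANKRD1 and ACTC1 led, or at D32, where KRT19 and PITX1 led, and the name stands only for the gate. The Schwann cell markers CDH19, MBP and FOXD3 summed to 132 to 166 CPM in melanocyte-like cells, against 6.12 to 98.1 CPM in the other classes. Epithelial, endothelial and blood marker lists summed to at most 103 CPM in any class, the pluripotency list to at most 80.9 CPM and the muscle list to at most 114 CPM. The part of these genes in the results was not tested.

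The promoters of the 10 genes were searched for the hexamers that these receptors are known to bind. RefSeq start sites on GRCh38.p14 were found for 9 of the 10 genes, with 17 start sites among them, and 250 bases before to 50 bases after each start were searched on both strands. The receptor hexamers searched were the consensus AGGTCA, then AGTTCA, then GGTTCA, and last GGGTCA, and the direct repeats were a pair of them spaced by 1, 2 or 5 bases (DR1, DR2 and DR5), so that a repeat also counts as hexamers. Of 35116 promoters of the same length, 38.6% held a hexamer, 0.131% a DR1, 0.0399% a DR2 and 0.0883% a DR5. Among the 10 genes only 1 of the 4 start sites of RARB held a direct repeat, a DR5 on chromosome 3 at 25428210 to 25428226, which starts 53 bases before the start site. Its 250 bases are shown with both hexamers of the DR5 in capitals. The NR2F1 promoter is shown because the data turn on this gene, with its single hexamer in capitals, 39 bases before the start. The CRABP1 promoter, shown for the same reason, held none of these hexamers and so has no capitals. The sequences are from RefSeq, on the strand of the gene.
RARB, chr3:25428013-25428262, + strand: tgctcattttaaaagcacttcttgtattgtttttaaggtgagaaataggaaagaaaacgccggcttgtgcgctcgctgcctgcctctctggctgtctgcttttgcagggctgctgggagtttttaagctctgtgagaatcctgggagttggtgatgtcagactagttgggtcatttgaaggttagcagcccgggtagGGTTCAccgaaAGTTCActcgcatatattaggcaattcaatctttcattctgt
NR2F1, chr5:93582972-93583221, + strand: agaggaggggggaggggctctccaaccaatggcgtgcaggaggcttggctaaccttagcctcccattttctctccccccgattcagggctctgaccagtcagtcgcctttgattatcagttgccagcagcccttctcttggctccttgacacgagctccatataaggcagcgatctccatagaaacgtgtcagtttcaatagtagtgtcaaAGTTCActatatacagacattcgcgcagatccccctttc
CRABP1, chr15:78340103-78340352, + strand: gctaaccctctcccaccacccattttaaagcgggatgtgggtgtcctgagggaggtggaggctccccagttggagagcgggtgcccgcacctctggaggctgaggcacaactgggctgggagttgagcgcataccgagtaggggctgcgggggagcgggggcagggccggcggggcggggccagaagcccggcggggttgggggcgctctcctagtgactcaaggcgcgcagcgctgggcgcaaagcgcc

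A match of letters describes the window and not a bound site. A further hexamer stood 83 bases before the same RARB start. At least 1 start site of NR2F2, CRABP2, RARA and RXRA, and other start sites of RARB and NR2F1, had 1 or 2 hexamers and no repeat. The remaining start sites of NR2F2, RARA, RXRA and RARB had none. RARG and CYP26B1 had none in these windows.

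NR2F1 (chromosome 5, 93583222 to 93594611 on GRCh38), a transcription factor that controls patterning of the cortex and of neural crest derivatives, had 244 CPM in melanocyte-like cells at D23 (95% Poisson interval 238 to 250), 20.1 CPM at D32 (19.5 to 20.6) and 18.7 CPM at D44 (18.2 to 19.2). Neural crest-like cells had 1519 CPM at D23 (1497 to 1542) and 541 CPM at D32 (514 to 570), and the 5 cells of D44 had 269 CPM (201 to 352). Mesenchymal-like cells had 1338 CPM at D23 (1300 to 1377), 32.4 CPM at D32 (28.9 to 36.3) and 76.99 CPM at D44 (53.6 to 107). Thus D23 was the highest library in each of the 3 classes, and neural crest-like cells were the highest class in each library. The intervals cover counting error only.

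The D32 level of NR2F1 was 0.0822 times the D23 level in melanocyte-like cells (95% interval 0.0792 to 0.0853), 0.356 times in neural crest-like cells (0.338 to 0.376) and 0.0242 times in mesenchymal-like cells (0.0215 to 0.0272). The gap between D23 and D32 was therefore not limited to the melanocyte-like class. It coincides with the change of induction and sequencing run, and the part of the stage of culture and its medium was not tested. Between D32 and D44, of 1 induction and run, the ratio was 0.931 in melanocyte-like cells (0.894 to 0.970). With cells thinned to an equal 5000 UMIs the same ratio was 1.00.

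Within D23, NR2F1 was graded along the melanocyte score. When its thinned melanocyte-like cells were cut by score into 3 groups of 741, the group with the highest score had 166 CPM, the middle group 259 CPM and the lowest group 299.9 CPM. At D32 the highest, middle and lowest groups had 18.7, 20.7 and 21.5 CPM, and at D44 they had 20.3, 19.5 and 21.2 CPM. The 3 groups of each later library thus lay within 3 CPM of each other. Taking off 10% of each cell's UMIs in the proportions of its whole library, an allowance for free RNA, left 198 CPM in melanocyte-like cells of D23.

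**Figure D1:**
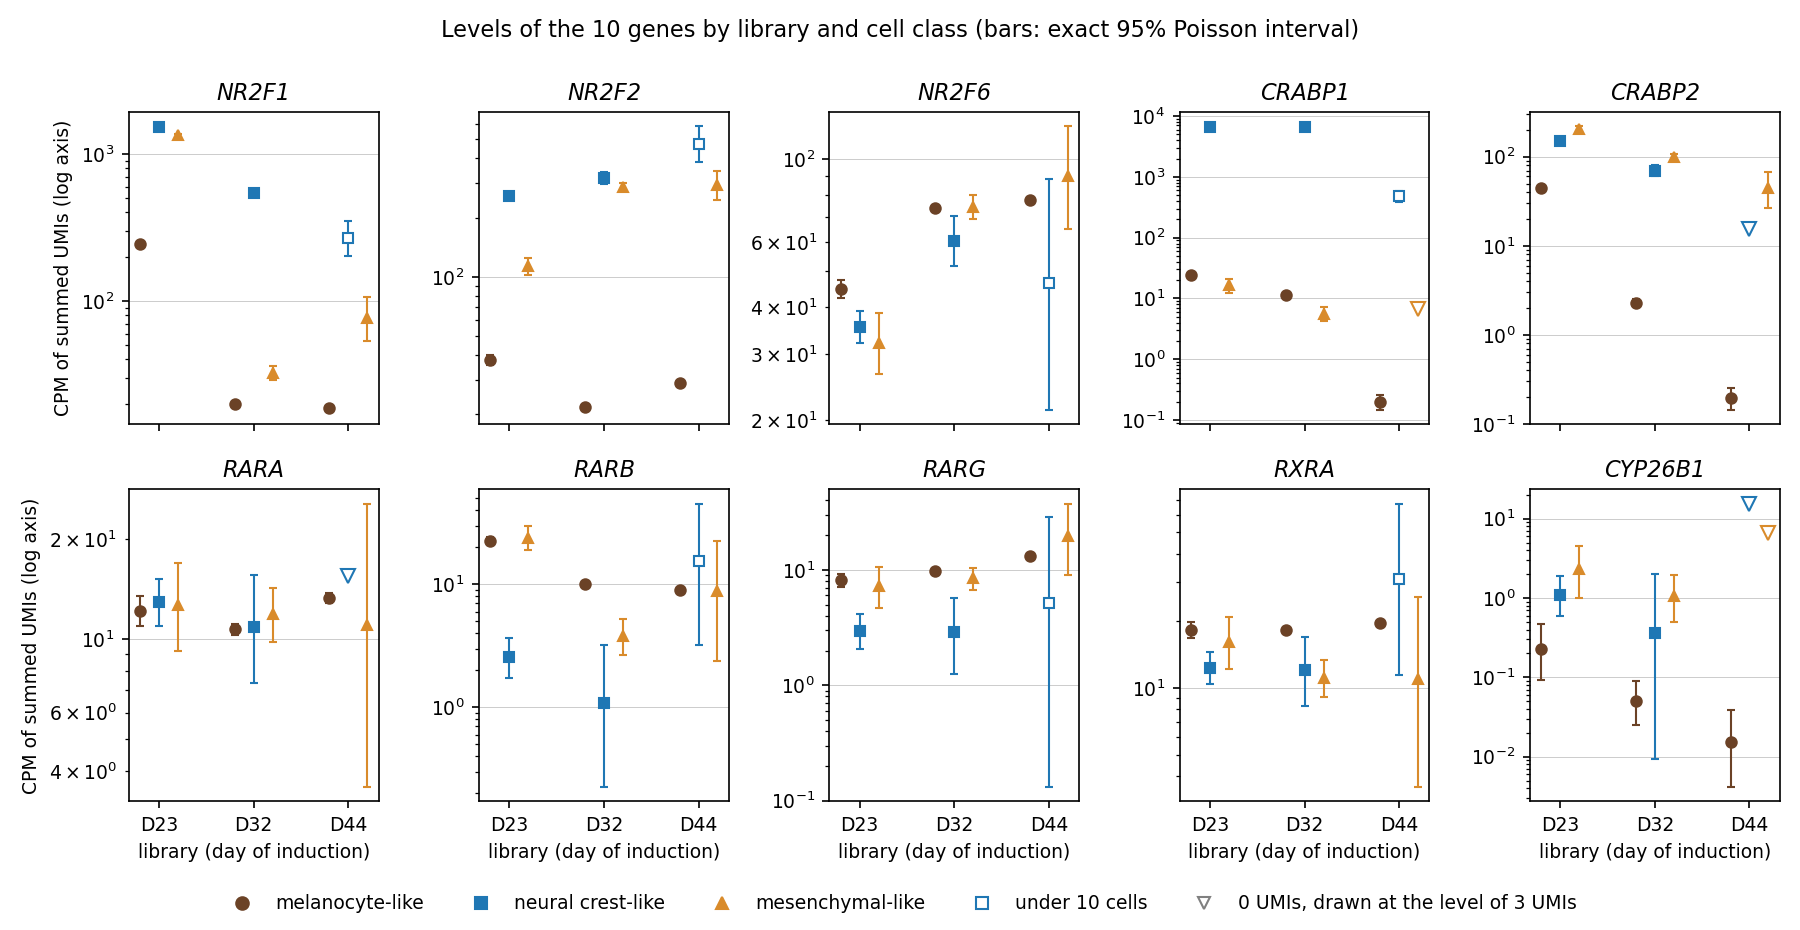
Level of each of the 10 genes (CPM of summed UMIs, log axis) in melanocyte-like, neural crest-like and mesenchymal-like cells of the D23, D32 and D44 libraries, with exact 95% Poisson intervals. Open squares are sums under 10 cells and downward triangles are sums with 0 UMIs, drawn at the level of 3 UMIs. NR2F1 lies at 20.1 and 18.7 CPM in melanocyte-like cells of D32 and D44, and CRABP1 at 6671 and 6693 CPM in neural crest-like cells of D23 and D32.

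Counts per cell gave the same order. After thinning to 5000 UMIs, which left out 28, 106 and 15 shallower cells of the melanocyte-like, neural crest-like and mesenchymal-like classes at D23 and none later, an NR2F1 UMI was found in 56.3% of melanocyte-like cells at D23, 9.02% at D32 and 8.88% at D44. As deposited these shares were 79.2%, 43.6% and 43.5%. In neural crest-like cells the thinned share was 97.8% at D23 and 81.4% at D32. In mesenchymal-like cells it was 97.7% at D23, 11.2% at D32 and 28.6% at D44 (14 cells). At D23 nearly every neural crest-like and mesenchymal-like cell carried the transcript, with median depths of 12798, 12383 and 11889 UMIs in melanocyte-like, neural crest-like and mesenchymal-like cells.

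Whether NR2F1 separates neural crest-like from mesenchymal-like cells was not part of the choice and was tested. Its neural crest-like level was 1.14 times the mesenchymal-like level at D23 and 16.7 times at D32. Over the libraries the log2 fold change was 1.98 ± 0.72 (SE; higher in 2 of 2 libraries), which did not pass (edgeR quasi-likelihood adjusted p = 0.190). Without D23 the log2 fold change was 3.58 and passed, in a fit with 1 residual degree of freedom, and without D32 it was 0.31. The log2 fold changes of NR2F1 in melanocyte-like cells, -3.82 over neural crest-like cells and -1.84 over mesenchymal-like cells, are descriptions.

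NR2F2 (chromosome 15, 96325938 to 96340263), the close paralogue of NR2F1, known for its roles in vein identity and mesenchyme, had 37.7, 21.6 and 28.7 CPM in melanocyte-like cells at D23, D32 and D44. Neural crest-like cells had 257, 318 and 475 CPM at D23, D32 and D44, the last from 5 cells. Mesenchymal-like cells had 114, 288 and 293 CPM. The melanocyte-like level thus lay below both other classes in every library. NR2F2 fell in melanocyte-like cells over neural crest-like cells, with a log2 fold change of -3.18 (SE 0.41, adjusted p = 0.00248, lower in 2 of 2 libraries). It also fell over mesenchymal-like cells, with a log2 fold change of -2.83 (SE 0.38, adjusted p = 0.00287, lower in 3 of 3 libraries). Both calls were kept in all 13 alternatives. Between neural crest-like and mesenchymal-like cells its log2 fold change was 0.35 ± 0.41 (adjusted p = 0.708).

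Between the days, NR2F2 did not move one way in the 3 classes. The ratio of D32 over D23 was 0.574 in melanocyte-like cells (0.538 to 0.613), 1.24 in neural crest-like cells (1.15 to 1.33) and 2.54 in mesenchymal-like cells (2.28 to 2.83). In thinned cells, an NR2F2 UMI was found in 15.8%, 9.61% and 13.2% of melanocyte-like cells at D23, D32 and D44. The share was 64.2% and 74.3% of neural crest-like cells at D23 and D32, and 43.9%, 68.6% and 71.4% of mesenchymal-like cells at D23, D32 and D44. At D32, NR2F2 was thus found in most mesenchymal-like cells and NR2F1 in 11.2% of them, and both were found together in 8.53%. At D23 both were found together in 42.4% of mesenchymal-like cells and in 67.5% of the pre-migratory crest-like cells described below.

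NR2F6 (chromosome 19, 17231883 to 17245919), the most distant member of the family, had 44.8, 74.0 and 77.8 CPM in melanocyte-like cells, 35.5, 60.4 and 46.5 CPM in neural crest-like cells, and 32.2, 74.3 and 90.2 CPM in mesenchymal-like cells at D23, D32 and D44. It passed in none of the 3 comparisons. Its log2 fold changes were 0.41 in melanocyte-like over neural crest-like cells (adjusted p = 0.185), 0.16 over mesenchymal-like cells (adjusted p = 0.590) and -0.26 in neural crest-like over mesenchymal-like cells (adjusted p = 0.551). Its level in melanocyte-like cells at D32 was 1.65 times that at D23 (1.56 to 1.74).

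CRABP1 (chromosome 15, 78340353 to 78348225), which carries retinoic acid to its degrading enzymes, had 24.5 CPM in melanocyte-like cells at D23, 11.2 CPM at D32 and 0.197 CPM at D44. Neural crest-like cells had 6671 CPM at D23 and 6693 CPM at D32, and the 5 cells of D44 had 486 CPM. Mesenchymal-like cells had 16.4 CPM at D23 and 5.58 CPM at D32, from 57 and 53 UMIs. At D44 the 14 mesenchymal-like cells had 0 UMIs, which allows up to 8.12 CPM. The neural crest-like level was 407 times the mesenchymal-like level at D23 (314 to 538) and 1199 times at D32 (916 to 1602). The D23 ratio was 72.6 with clusters, 692 in thinned cells and 111 without the neural tube-like cells described below, which held 60052 of the 78462 CRABP1 UMIs of the class. The D32 ratio was 404 with clusters, 1997 with the stricter gate and 4634 in thinned cells. The melanocyte-like level was 0.00368 times the neural crest-like level at D23 and 0.00168 times at D32. These contrasts chose the gene and were not tested.

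Over all kept cells of the library, CRABP1 had 1681 CPM at D23, 119.9 CPM at D32 and 0.551 CPM at D44. The part of free RNA in the low counts outside the neural crest-like class was not tested. After thinning, a CRABP1 UMI was found in 4.23%, 1.54% and 0.0869% of melanocyte-like cells at D23, D32 and D44. At D23 and D32 it was found in 80.0% and 98.2% of neural crest-like cells and in 5.68% and 0.775% of mesenchymal-like cells. Removing called doublets, 4 of the 2251 melanocyte-like cells at D23, left a level of 14.1 CPM there. Taking off 10% of each cell's UMIs as free RNA left 0 in the melanocyte-like and mesenchymal-like cells of D23 and D32. The size of the allowance fixed this outcome, since 10% of the CRABP1 level of the whole library exceeded the level in these classes. Between melanocyte-like and mesenchymal-like cells, which the choice did not use, the log2 fold change was 0.78 ± 0.31 (edgeR adjusted p = 0.135). The melanocyte-like level was higher at D23 and D32, and D44 could not be compared, since its melanocyte-like level lay under what 0 UMIs allow in the 14 mesenchymal-like cells. The fold change was 1.03 without D23, where it passed in a fit with 1 residual degree of freedom (adjusted p = 0.0130), and it also passed with no filter on low counts. With the cells assigned by unsupervised clusters it was -2.27.

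**Figure D2:**
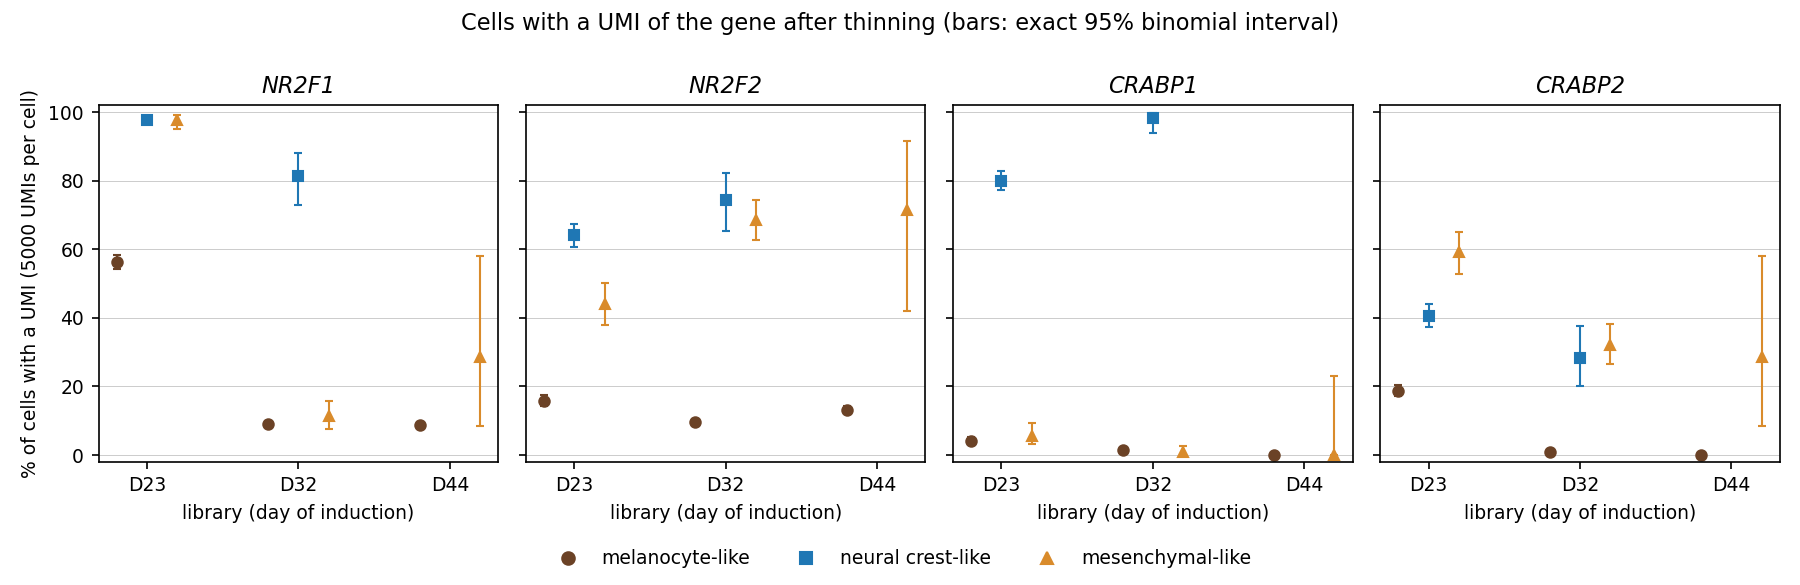
Percent of cells with at least 1 UMI of NR2F1, NR2F2, CRABP1 and CRABP2 after thinning to 5000 UMIs per cell, by library and class, with exact 95% binomial intervals. CRABP1 is found in 80.0% and 98.2% of neural crest-like cells at D23 and D32 and in at most 5.68% of the other classes.

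CRABP2 (chromosome 1, 156699606 to 156705816), which delivers retinoic acid to nuclear RAR and is itself induced by it, had 44.8, 2.30 and 0.193 CPM in melanocyte-like cells at D23, D32 and D44. Neural crest-like cells had 151 and 69.9 CPM at D23 and D32 and 0 UMIs in the 5 cells of D44. Mesenchymal-like cells had 204, 99.4 and 44.0 CPM, the last from 20 UMIs. Its order of classes thus differed from that of CRABP1, with mesenchymal-like cells highest. CRABP2 fell in melanocyte-like cells over mesenchymal-like cells, with a log2 fold change of -4.51 (SE 0.986, adjusted p = 0.0196, lower in 3 of 3 libraries), and over neural crest-like cells, with one of -3.36 (SE 0.96, adjusted p = 0.0457, lower in 2 of 2 libraries). Both calls were lost without D44, with no replicate block and with clusters, and the one over neural crest-like cells also with 10% free RNA taken off. The highest adjusted p over the alternatives was 0.267 against mesenchymal-like cells and 0.288 against neural crest-like cells. Between neural crest-like and mesenchymal-like cells the log2 fold change was -1.15 ± 1.01 (adjusted p = 0.597).

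The melanocyte-like level of CRABP2 at D32 was 0.0512 times that at D23 (0.0462 to 0.0568), and at D44 it was 0.0840 times that at D32 (0.0617 to 0.112). Between D32 and D44, within 1 induction and run, the ratio of NR2F1 was 0.931. In thinned melanocyte-like cells the share with a CRABP2 UMI was 18.7% at D23, 0.908% at D32 and 0.122% at D44. In mesenchymal-like cells it was 59.1%, 32.2% and 28.6%, and in neural crest-like cells 40.6% and 28.3% at D23 and D32. Within D23, the 3 groups with the highest, middle and lowest melanocyte score had 38.6, 43.5 and 58.0 CPM of CRABP2.

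The neural crest-like cells of D23 were made of 270 neural tube-like cells, with higher scores for DCX, POU3F2, ELAVL3, HES5 and PAX6, and 662 pre-migratory crest-like cells, with higher scores for MSX1, MSX2, NEFM, TFAP2B and PAX3. Median depth was 5463 UMIs in neural tube-like cells and 14498 UMIs in pre-migratory crest-like cells. Both come from 1 library, so that their ratios carry counting intervals and no test. CRABP1 had 36031 CPM in neural tube-like cells and 1824 CPM in pre-migratory crest-like cells, a ratio of 19.8 (19.4 to 20.1). CRABP2 ran the other way, with 12.6 CPM in neural tube-like cells from 21 UMIs and 173 CPM in pre-migratory crest-like cells, a ratio of 0.0726 (0.0448 to 0.111). The CRABP genes thus split the class in opposite directions.

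**Figure D3:**
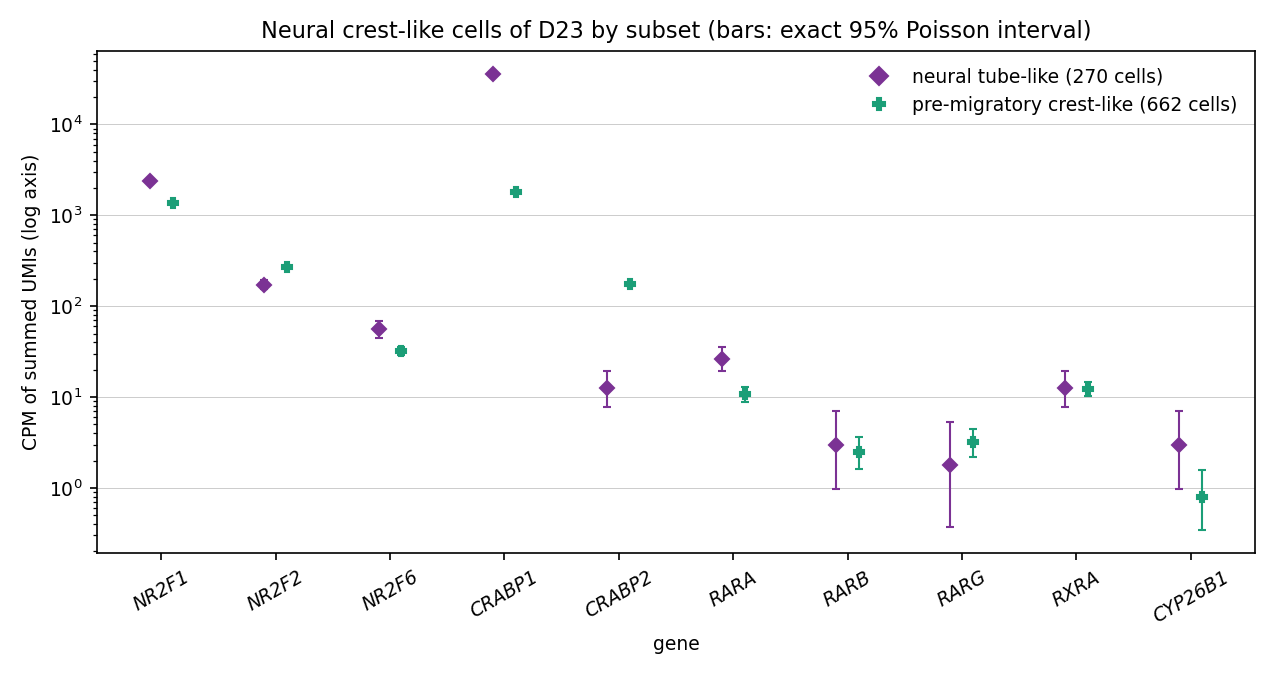
Level of the 10 genes (CPM of summed UMIs, log axis) in the 270 neural tube-like and 662 pre-migratory crest-like cells of D23, with exact 95% Poisson intervals. CRABP1 is 19.8 times and CRABP2 0.0726 times as high in neural tube-like cells.

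NR2F1 had 2366 CPM in neural tube-like cells and 1379 CPM in pre-migratory crest-like cells (ratio 1.72, 1.66 to 1.78), whereas NR2F2 had 173 and 271 CPM (ratio 0.637, 0.562 to 0.719). NR2F6 had a ratio of 1.74 (1.37 to 2.20) and RARA one of 2.47 (1.70 to 3.53). The intervals of RARB, RARG, RXRA and CYP26B1 included 1. CRABP1 was found in all 171 thinned neural tube-like cells and in 74.8% of 655 thinned pre-migratory crest-like cells. CRABP1 and CRABP2 were found in the same cell in 7 of the 171 neural tube-like cells (4.09%) and in 242 of the 655 pre-migratory crest-like cells (36.9%). In pre-migratory crest-like cells CRABP2 was found in 49.4% of cells with CRABP1 and in 52.1% of cells without it. NR2F1 and CRABP1 were found together in 169 of the 171 neural tube-like cells and in 480 of the 655 pre-migratory crest-like cells. At D32 the subset had 7 neural tube-like and 106 pre-migratory crest-like cells. The pre-migratory crest-like level of CRABP1 was 5717 CPM there, 3.13 times that of D23 (3.07 to 3.20), although the level over all neural crest-like cells was 1.00 times that of D23.

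Of the receptors, RARB (chromosome 3, 24687887 to 25597932), whose promoter carries the DR5 shown above and which is a classical target of retinoic acid, differed most between classes. It had 22.6, 10.1 and 9.03 CPM in melanocyte-like cells at D23, D32 and D44. Neural crest-like cells had 2.55 and 1.09 CPM at D23 and D32, from 30 and 3 UMIs. Mesenchymal-like cells had 23.9, 3.79 and 8.80 CPM at D23, D32 and D44, from 83, 36 and 4 UMIs. RARB rose in melanocyte-like cells over neural crest-like cells by 3.41 ± 0.49 on the log2 scale (adjusted p = 0.00359, higher in 2 of 2 libraries), a call kept in all 13 alternatives with adjusted p up to 0.0438. It fell in neural crest-like cells over mesenchymal-like cells, with a log2 fold change of -2.85 (SE 0.49, adjusted p = 0.0296, lower in 2 of 2 libraries). That call was lost without D23, without D44 and in 4 other alternatives, with an adjusted p of up to 0.238. Against mesenchymal-like cells the melanocyte-like fold change was 0.56 ± 0.36 (adjusted p = 0.331). The thinned share of cells with a RARB UMI was 11.2% of melanocyte-like cells, 0.969% of neural crest-like cells and 12.1% of mesenchymal-like cells at D23.

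RARG (chromosome 12, 53210567 to 53232980), the receptor of skin and cartilage, had 8.12, 9.73 and 13.3 CPM in melanocyte-like cells at D23, D32 and D44, 2.98 and 2.91 CPM in neural crest-like cells at D23 and D32, and 7.18, 8.42 and 19.8 CPM in mesenchymal-like cells. The neural crest-like values rest on 35 and 8 UMIs. RARG rose in melanocyte-like cells over neural crest-like cells by 1.62 ± 0.33 (adjusted p = 0.0131, higher in 2 of 2 libraries), and the call was lost without D23 or without D32 (adjusted p up to 0.266). Between neural crest-like and mesenchymal-like cells the fold change was -1.56 ± 0.34 (adjusted p = 0.0554).

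RARA (chromosome 17, 40309180 to 40357643), the most widely expressed RAR, passed in none of the comparisons. It had 12.2, 10.7 and 13.3 CPM in melanocyte-like cells, 12.9 and 10.9 CPM in neural crest-like cells at D23 and D32, and 12.6, 11.9 and 11.0 CPM in mesenchymal-like cells. Its log2 fold changes were 0.11 ± 0.26, 0.0096 ± 0.24 and -0.10 ± 0.27 in melanocyte-like over neural crest-like, melanocyte-like over mesenchymal-like and neural crest-like over mesenchymal-like cells, and the sign of the melanocyte-like ones turned when only total UMIs were used for scaling. RXRA (chromosome 9, 134317098 to 134440585), the shared partner of RAR and NR2F proteins, had 18.2, 18.3 and 19.5 CPM in melanocyte-like cells, 12.3 and 12.0 CPM in neural crest-like cells at D23 and D32, and 16.1, 11.1 and 11.0 CPM in mesenchymal-like cells. Melanocyte-like cells were the highest class in every sum of 10 or more cells. The fold changes, 0.78 ± 0.26 over neural crest-like cells (adjusted p = 0.0770) and 0.57 ± 0.23 over mesenchymal-like cells (adjusted p = 0.140), did not pass.

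CYP26B1 (chromosome 2, 72129238 to 72147862), which degrades retinoic acid, was near the limit of detection. It had 7, 11 and 4 UMIs in melanocyte-like cells at D23, D32 and D44 (0.230, 0.0496 and 0.0151 CPM), 13 and 1 UMIs in neural crest-like cells at D23 and D32 (1.10 and 0.364 CPM), and 8, 10 and 0 UMIs in mesenchymal-like cells (2.30 and 1.05 CPM at D23 and D32). It fell in melanocyte-like cells over mesenchymal-like cells, with a log2 fold change of -3.82 (SE 0.72, adjusted p = 0.0109, lower in 2 of 3 libraries, since the 14 cells of D44 had 0 UMIs). The call was lost without D23 or without D32 (adjusted p up to 0.180). Against neural crest-like cells the fold change was -2.44 ± 0.80 (adjusted p = 0.0692).

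In all, 4 of the 8 tested genes passed in melanocyte-like over neural crest-like cells, with RARB and RARG higher and NR2F2 and CRABP2 lower, where 21.5% of all 15155 genes passed (8.93% higher and 12.5% lower). In melanocyte-like over mesenchymal-like cells 3 of 9 were lower (NR2F2, CRABP2 and CYP26B1) and none higher, where 19.6% of all genes passed (9.57% higher and 10% lower). In neural crest-like over mesenchymal-like cells 1 of 9 passed (RARB, lower), where 3.77% of all genes passed (2.39% higher and 1.38% lower). All 10 genes passed the filter on low counts. The p-values measure how a difference recurs over these 3 libraries, which came from 2 inductions, in a fit with 3 residual degrees of freedom. In the comparisons with neural crest-like cells only 2 libraries, D23 and D32, held both classes. D44 entered those only through its other classes.

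**Figure D4:**
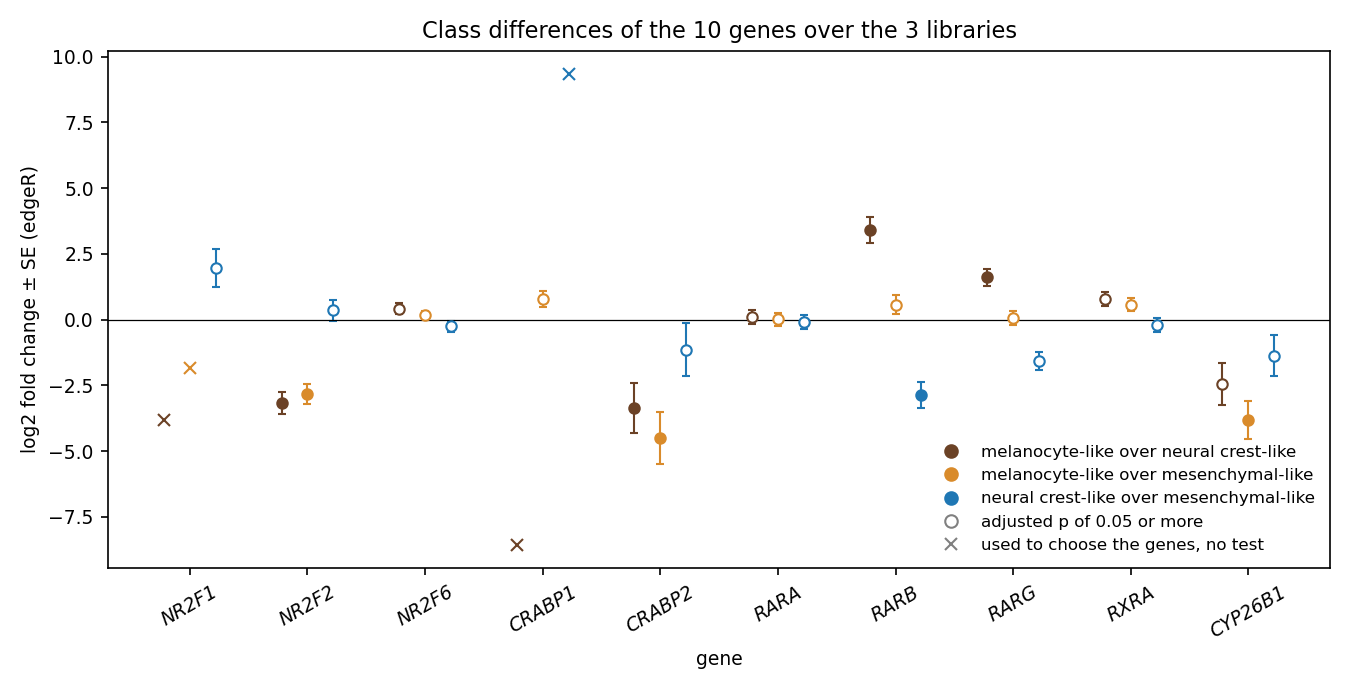
Log2 fold change ± SE (edgeR) of the 10 genes in the 3 class comparisons. Filled points have an adjusted p under 0.05, open points 0.05 or more, and crosses mark the contrasts that chose the genes and have no test. NR2F2 lies at -3.18 and -2.83 in the melanocyte-like comparisons and RARB at 3.41 over neural crest-like cells.

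The rest of the pathway was taken from 6 lists with 78 genes, of which 77 were in the files and 65 passed the filter. In melanocyte-like over neural crest-like cells 3 were higher and 21 lower, and 41 did not pass, where 8.93% of all genes were higher and 12.5% lower. The 21 include NR2F1-AS1, which lies beside NR2F1, in a contrast that chose NR2F1. The median log2 fold change of the tested list genes was -0.63, where that of all genes was 0.08. In melanocyte-like over mesenchymal-like cells 4 were higher and 15 lower, where 9.57% of all genes were higher and 10% lower. The median was -0.15, where that of all genes was 0.09. In neural crest-like over mesenchymal-like cells 6 were higher and 1 lower, where 2.39% of all genes were higher and 1.38% lower. The median was 0.34, where that of all genes was 0.01. Scaling by total UMIs alone moved the median of all genes by -0.15, -0.050 and 0.10 in the same order.

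Of 18 tested genes of retinoid synthesis and transport, 2 were higher and 3 lower in melanocyte-like over neural crest-like cells, where 21.5% of all genes passed, so that the share of the list lay near that of all genes. FABP5, a fatty acid binding protein that can also carry retinoic acid, had 1651, 1912 and 1435 CPM in melanocyte-like cells at D23, D32 and D44, compared with 368 and 460.3 CPM in neural crest-like cells at D23 and D32 and 462, 590.3 and 581 CPM in mesenchymal-like cells. It rose by 2.21 ± 0.16 (adjusted p = 0.000424) over neural crest-like and by 1.70 ± 0.13 (adjusted p = 0.000442) over mesenchymal-like cells. ALDH1A3, a retinaldehyde dehydrogenase that makes retinoic acid, had 0.460, 3.66 and 16.2 CPM in melanocyte-like cells at D23, D32 and D44. Mesenchymal-like cells had 0 UMIs of it in each library, where 3 UMIs would be 0.862, 0.316 and 6.60 CPM, so that the D23 level lay under that of 3 UMIs. ALDH1A3 passed as higher over mesenchymal-like cells (adjusted p = 0.00653), but not when the replicate block was left out. ALDH1A1 passed over neural crest-like cells (adjusted p = 0.0479) from 879 UMIs in melanocyte-like and 3 UMIs in neural crest-like cells, a ratio of 8.23 (2.81 to 40.0), and the call was lost in 11 of 12 alternatives.

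Among the degrading enzymes, CYP26B1 did not pass in melanocyte-like over neural crest-like cells (edgeR adjusted p = 0.0692). The 2 other tested genes of the breakdown list, CYP26A1 and CYP1B1, were both lower there, where 12.5% of all genes were lower. Of these, only CYP26A1 is a CYP26 enzyme. CYP26A1, the main inducible hydroxylase of retinoic acid, whose promoter is the only one found in these lists with a direct repeat (1 DR5), had 0.0329 and 0.0767 CPM in melanocyte-like cells at D23 and D32, against 3.15 and 43.7 CPM in neural crest-like cells. At D23, 3 UMIs would be 0.0987 CPM in melanocyte-like cells, so that the level there lay under that of 3 UMIs. The log2 fold change of CYP26A1 was -8.39 ± 1.02 (adjusted p = 0.00191). It ran from -13.0 to -6.28 over the 12 alternatives, all of which kept the call, so that its size is loosely fixed. Over mesenchymal-like cells the neural crest-like level had 157 UMIs against 1, a ratio of 145 (25.7 to 5776), and the call was lost in 5 of 12 alternatives (clusters, 10% free RNA taken off, no replicate block, and leaving out D32 or D44), where the highest adjusted p was 0.423. CYP1B1, a cytochrome that can also oxidise retinol, had 1.12, 8.51 and 44.3 CPM in melanocyte-like cells at D23, D32 and D44, compared with 157 and 155 CPM in neural crest-like cells at D23 and D32 (-4.36 ± 1.19, adjusted p = 0.0395). Taking off 10% free RNA or leaving out the replicate block ended the CYP1B1 call.

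Of 9 tested partner receptors, RXRG was higher and THRB lower in melanocyte-like cells in both comparisons, and 7 did not pass. Of all genes, 8.93% were higher and 12.5% lower over neural crest-like cells, and 9.57% and 10% over mesenchymal-like cells. The counts of the list thus lay near the shares of all genes. RXRG, a retinoid X receptor, had 11.6, 13.99 and 13.3 CPM in melanocyte-like cells at D23, D32 and D44. It had 0.340 and 0.364 CPM in neural crest-like cells at D23 and D32, and 0.287, 0.421 and 0 CPM in mesenchymal-like cells at D23, D32 and D44. There 3 UMIs would be 0.255 and 1.09 CPM, and 0.862, 0.316 and 6.60 CPM, in the same order. The levels outside melanocyte-like cells thus lay near or under that of 3 UMIs, and the size of the RXRG folds is loosely fixed. The log2 fold changes of RXRG were 5.22 ± 0.47 (adjusted p = 0.000689) over neural crest-like cells and 5.21 ± 0.44 (adjusted p = 0.000554) over mesenchymal-like cells. With cells assigned by clusters they were 2.68 (adjusted p = 0.0793) and 3.25 (adjusted p = 0.0735), so that both calls were lost, and over the other alternatives they reached 12.4 and 12.6. Every melanocyte-like sum of RXRG lay above every sum of the other classes, whereas RXRA was found in all classes.

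Of 6 genes that work with NR2F proteins or lie beside their genes, 4 were lower and none higher in melanocyte-like over neural crest-like cells, where 12.5% of all genes were lower. The 4 include NR2F1-AS1, which lies beside NR2F1, and this contrast chose NR2F1. BCL11B, a zinc finger protein that binds NR2F1 and NR2F2, had -5.00 ± 0.61 (adjusted p = 0.00191) and -4.63 ± 0.59 over mesenchymal-like cells (adjusted p = 0.00233). ZFPM2, a cofactor of NR2F2, had -4.23 (adjusted p = 0.0277) and was lost without D32, without D44 or with clusters (adjusted p up to 0.639). The antisense transcript NR2F1-AS1 had 11.2, 4.54 and 4.32 CPM in melanocyte-like cells at D23, D32 and D44. Neural crest-like cells had 92.3 and 92.8 CPM of it at D23 and D32, and mesenchymal-like cells 39.7, 4.84 and 41.8 CPM. Its log2 fold change of -3.84 over neural crest-like cells is a description, since this contrast chose NR2F1. NR2F2-AS1 had -4.01 ± 0.89 (adjusted p = 0.0193), a call lost without D44 or with clusters. Whether the counting used strand is not given in the sources used here, so that reads of these genes and of NR2F1 and NR2F2 may not be separable where they overlap.

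Of 17 tested retinoic acid targets, 8 were lower and none higher in each melanocyte-like comparison. Of all genes, 12.5% were lower and 8.93% higher over neural crest-like cells, and 10% and 9.57% over mesenchymal-like cells. These 17 leave out the 10 genes. Of those, the target RARB was higher over neural crest-like cells. CRABP2, also induced by retinoic acid, was lower over both classes. TGM2, a transglutaminase induced by retinoic acid, had 0.132, 1.41 and 0.813 CPM in melanocyte-like cells at D23, D32 and D44, compared with 22.5 and 81.9 CPM in neural crest-like cells at D23 and D32 and 19.8, 20.7 and 218 CPM in mesenchymal-like cells (-6.38 ± 0.82, adjusted p = 0.00235, and -6.05 ± 0.81, adjusted p = 0.00294). HOXA2, a hindbrain patterning gene, had -6.37 ± 1.19 over neural crest-like cells (adjusted p = 0.0135). Leaving out the replicate block ended the HOXA2 call. HOXB2 had 117 and 109.5 CPM in neural crest-like cells, against 27.0 and 33.3 CPM in mesenchymal-like cells at D23 and D32 (1.77 ± 0.20, adjusted p = 0.0102). That HOXB2 call was lost with clusters, with 10% free RNA taken off and without the neural tube-like cells, in which it had 618 CPM at D23. PLAAT4 had -6.06 ± 0.63 in melanocyte-like over neural crest-like cells (adjusted p = 0.00111) and missed the threshold when the replicate block was left out (adjusted p = 0.0518). Over mesenchymal-like cells, RARRES2 had -3.24 ± 0.55 (adjusted p = 0.00776) and MEIS1 -1.99 ± 0.51 (adjusted p = 0.0328). The MEIS1 call was lost in 5 of 13 alternatives, among them those without D32 and without D44 (adjusted p up to 0.605). CDX1, known from intestine and hindbrain, had 1 UMI in melanocyte-like and 30 UMIs in mesenchymal-like cells over all libraries.

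Among 13 tested coregulators, 3 were lower in melanocyte-like over neural crest-like cells (NCOA1, TRIM24 and ZNF423) and none higher, where 12.5% of all genes were lower. In neural crest-like over mesenchymal-like cells, ZNF423, a zinc finger coactivator of RAR and RXR, had 2.80 ± 0.44 (adjusted p = 0.0242) and NRIP1, a corepressor, had 1.77 ± 0.31 (adjusted p = 0.0296). Both calls were lost in 4 of 13 alternatives, namely clusters, 10% free RNA taken off, no replicate block and leaving out D44, where the highest adjusted p was 0.260 for ZNF423 and 0.189 for NRIP1. LRAT, which stores retinol as ester, had 74 UMIs in neural crest-like cells against 3 in mesenchymal-like cells, a ratio of 22.8 (7.52 to 113, adjusted p = 0.0216). The LRAT call was lost with no replicate block, without D32 and with 10% free RNA taken off.

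**Figure D5:**
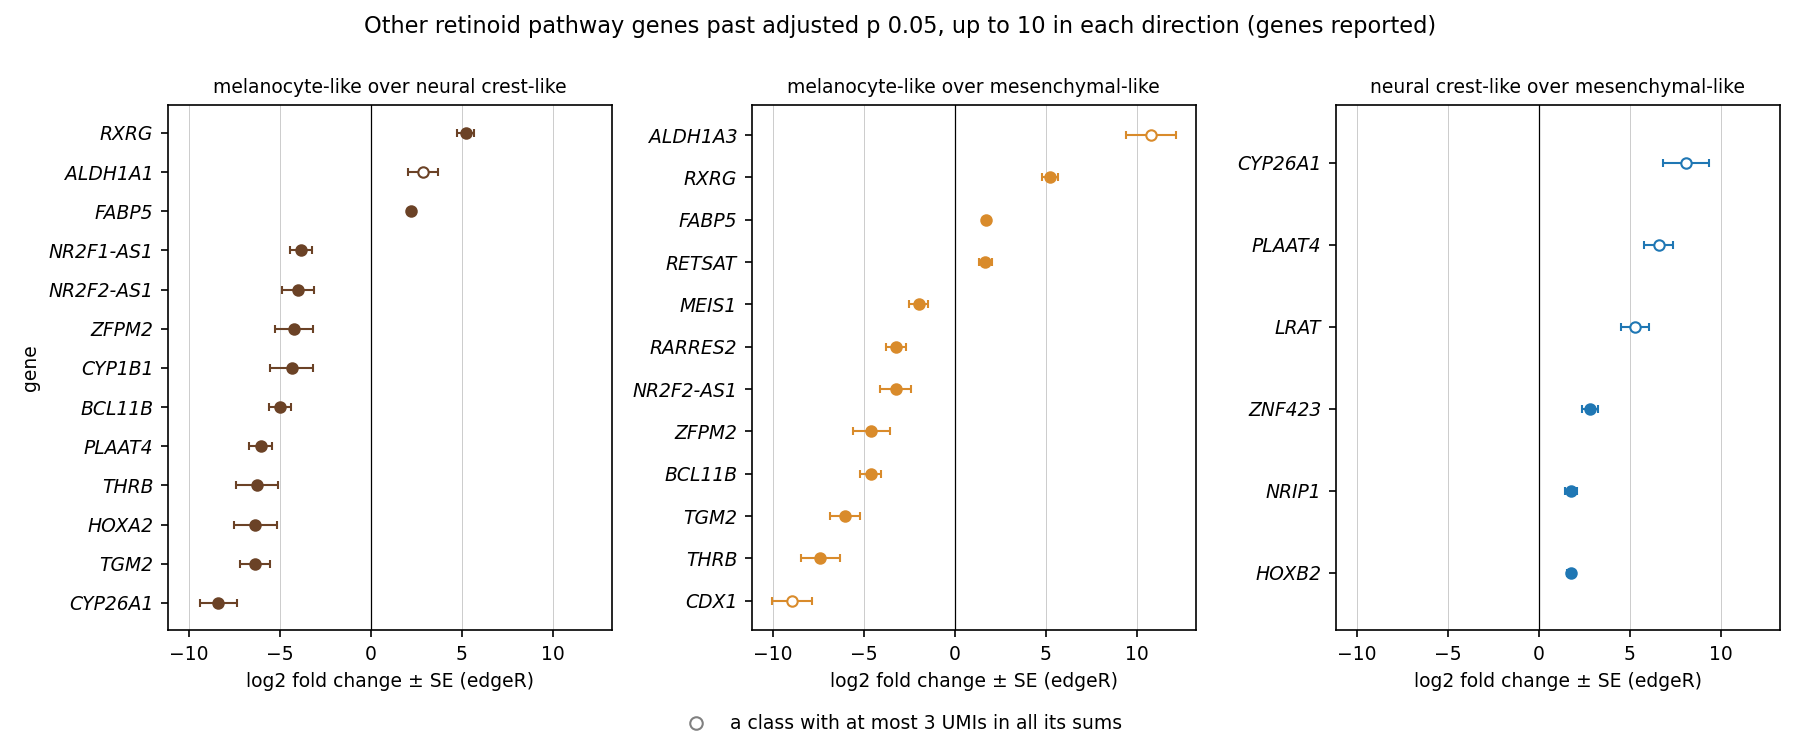
Log2 fold change ± SE (edgeR) of the other retinoid and NR2F genes past an adjusted p of 0.05 in each class comparison, up to 10 in each direction less the genes not reported here. White points have a class with at most 3 UMIs, where the fitted value is no bound. FABP5 and RXRG stand at 2.21 and 5.22 in melanocyte-like over neural crest-like cells.

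The genes most like NR2F1 and CRABP1 over the 8 sums of library and class were ranked by Pearson correlation of log2(CPM + 1) among 8589 genes with a mean of at least 10 CPM. The sums share libraries and depth, so that these values are descriptions. For NR2F1 they were HOTAIRM1, an antisense RNA of the HOXA cluster, TRIM52-AS1, ZDHHC21, AL162231.1 and IFT80, with correlations of 0.978 to 0.995. HOTAIRM1 had 12.1, 0.713 and 0.185 CPM in melanocyte-like cells at D23, D32 and D44, 97.6 and 33.8 CPM in neural crest-like cells at D23 and D32, and 53.7, 1.68 and 4.40 CPM in mesenchymal-like cells. For CRABP1 they were TNIK, IGFBPL1, PTK2, LINC02334 and PNMA1, with correlations of 0.959 to 0.967. IGFBPL1 had 191 and 183 CPM in neural crest-like cells at D23 and D32 and at most 0.862 CPM in the other sums.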

How the data were processed

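Single cells of 3 libraries, 1 each for D23, D32 and D44, were analysed from the UMI counts that the authors deposited, made with Cell Ranger 6.1.2 on hg38 per the labels, with no normalization. The 10 genes, marker lists and pathway lists were chosen with earlier results of these data known. Cells were kept by the study's limits (D23: over 1000 and under 7000 genes and under 50000 UMIs; D32 and D44: over 3000 and under 9000 genes and under 100000 UMIs; at most 10% mitochondrial). Totals of kept cells were 49850363, 241341185 and 266709913 UMIs at D23, D32 and D44.

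Each cell was scored by the mean over a class's markers of scaled log expression. Melanocyte-like cells had a score of at least 0.2, neural crest-like cells 0.25 and mesenchymal-like cells 0.3, with limits on the other scores. The limits were set after the score distributions were seen. Cells within 0.05 of the limit of their own class were 12.8%, 0.890% and 0.382% of melanocyte-like cells at D23, D32 and D44, and 5.79% and 19.5% of neural crest-like cells at D23 and D32. Called doublets (scanpy 1.11.5), 55, 415 and 364 cells, were kept in the main analysis.

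UMIs were summed per library and class where it held at least 10 cells, which gave 8 sums. Class differences came from the quasi-likelihood F test of edgeR 4.0.16 after filterByExpr and TMM, with Benjamini-Hochberg adjustment over 15155 genes and a threshold of 0.05. The library was a block because its classes shared the same droplet run. SE is the fold change over the root of F. Where the fitted variance lay under that of Poisson counts, edgeR raised p to that of a Poisson fit, so that p exceeds what fold and SE give. This held for 500, 698 and 1034 genes in the 3 comparisons, among them RARA in melanocyte-like over neural crest-like and RXRA in neural crest-like over mesenchymal-like cells, neither of which passed. Levels had exact Poisson, ratios exact conditional binomial and shares exact binomial 95% intervals, which cover counting error only. No test was made between days. The genes named are the 10 genes, up to 10 passing list genes in each direction, and the 5 genes most correlated with NR2F1 and CRABP1. On simulated counts, the test recovered 73%, 80% and 59% of genes changed by a log2 fold of 2, and 5%, 16% and 14% at a log2 fold of 1, in the order melanocyte-like over neural crest-like, melanocyte-like over mesenchymal-like and neural crest-like over mesenchymal-like. The simulation gave every gene the same dispersion (0.0637) and no library effect, so that these shares may not hold for genes that vary more. Alternatives changed the scaling, tool (DESeq2 1.42.0), filter, block, libraries, gate, doublets, depth, free RNA and cell filter. Removal of the neural tube-like cells was added after seeing the data. Some list and marker genes are not reported here.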

Additional observations from a re-analysis of the deposited data

Results flagged for a closer look

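The D44 over D32 ratio of NR2F1 lay on opposite sides of 1 in classes of the same induction and run. It was 0.931 in melanocyte-like cells (95% interval 0.894 to 0.970) and 2.37 in mesenchymal-like cells (1.62 to 3.37, 14 cells at D44). With cells thinned to equal UMIs the melanocyte-like ratio was 1.00. That value rests on fewer UMIs and is given without an interval, and no thinned ratio is given for mesenchymal-like cells. It therefore cannot decide whether the opposite sides hold. The D32 over D23 ratio of NR2F2 was 0.574 in melanocyte-like cells (0.538 to 0.613), whereas it was 1.24 in neural crest-like cells (1.15 to 1.33) and 2.54 in mesenchymal-like cells (2.28 to 2.83). With 1 library per day these differences between classes were not tested.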

How the results depend on the processing

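Over 335 alternative values of the folds of the 10 genes, 290 kept their direction and their side of the threshold, 17 lost the threshold, 8 gained it and 20 turned sign, none of them from a called value. Of 427 alternative values of the named list genes, 73 lost the threshold and none turned. The library pairs the classes. Without this replicate block, 2135 genes were called in melanocyte-like over neural crest-like cells (3253 with it), 1744 in melanocyte-like over mesenchymal-like cells (2973 with it) and 86 in neural crest-like over mesenchymal-like cells (571 with it), and the last comparison called 0 of the 10 genes (1 with it). Without the filter on low counts the counts of genes were 5290, 4523 and 1986, and 4 of the 10 genes were called in the last comparison. There, DESeq2 called 1511 genes and 2 of the 10, clusters 218 and 0, removal of 10% free RNA 66 and 0, and the stricter gate 0 of the 10. Clusters gave 1945 genes in melanocyte-like over mesenchymal-like cells. Leaving out 1 library gave 2227 to 3165, 1725 (without D32) to 2912, and 332 (without D44) to 1081 (without D23) genes in the 3 comparisons, and 0 to 2 of the 10 genes in the last. Fits without D23 or D32 had 1 residual degree of freedom. The causes were not tested.

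None of the folds that turned had passed the test. In melanocyte-like over neural crest-like cells, RARA was -0.032 by total UMIs, -0.0043 with DESeq2 and -0.39 in thinned cells. In melanocyte-like over mesenchymal-like cells, RARA was -0.036 by total UMIs, -0.095 with DESeq2, -0.14 with the stricter gate, -0.062 with clusters and -0.0048 in thinned cells, and -0.11 to 0.17 without 1 library. RARG was -0.0043 by total UMIs and -0.27 in thinned cells, and -0.040 to 0.19 without 1 library. NR2F6 was -0.11 in thinned cells and -0.043 to 0.30 without 1 library. CRABP1 was -2.27 with clusters and -0.0054 without called doublets. In neural crest-like over mesenchymal-like cells, RARA was 0.38 in thinned cells and -0.21 to 0.13 without 1 library, and NR2F6 was -0.50 to 0.015.

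The D32 over D23 ratio of NR2F1 in melanocyte-like cells was 0.0926 with the stricter gate, 0.0737 with clusters and 0.0966 after removal of free RNA. Its D44 over D32 ratio was 0.986 with clusters, 1.00 in thinned cells and 0.974 after removal of free RNA. The neural crest-like over mesenchymal-like ratio of CRABP1 at D23 was 72.6 with clusters, 692 in thinned cells and 111 without neural tube-like cells. At D32 it was 1997 with the stricter gate, 404 with clusters, 4634 in thinned cells and 805 with 1 cell filter for all libraries. Without neural tube-like cells, all 26 tested folds of the 10 genes kept their direction and side of the threshold.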
